A study of Mus musculus with 11 samples.

Results

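The RNAs described here are the small nucleolar RNAs (snoRNAs) and Cajal body RNAs that poly(A)-oriented libraries of mouse back skin still picked up. They were chosen by name and by level, as the rows of the deposited table whose symbol begins with Snora, Snord, Scarna or Rnu3, in any letter case, and whose mean over the 11 libraries was at least 1 normalized count, that is, 1 read after division by a library's size factor. Of 38406 rows, 128 carried such a name, and 42 of those reached the mean. The members were 22 Snord RNAs, 19 Snora RNAs and 1 Rnu3 RNA, Rnu3a. No Scarna row reached the mean. Of the other 86 rows, 35 had no read in any library and 51 had reads but a mean under 1. The member nearest above the limit was Snord13 at a mean of 1.20, and the rows nearest below it were Snora24 at 0.99 and Snord4a at 0.98. The rule also names the lower level of Rnu3a in knockout skin, a value measured in these libraries, so the genotype difference of Rnu3a is given as a description without a test.

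All 11 libraries came from back skin of female C57BL/6 mice of 8 to 10 weeks, each painted daily for 4 days with 125 mg of cream holding 5% imiquimod and killed 24 hours after the last dose. Imiquimod is an agonist of the innate receptor TLR7, and the cream produces psoriasis-like inflammation. The groups were 5 wild-type mice and 6 Trex2-/- mice, which lack a DNA exonuclease made mainly in keratinocytes. Skin without imiquimod was not analysed here, and the labels give no litter, batch or date.

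snoRNAs work in the nucleolus as the guides of small ribonucleoproteins. C/D box RNAs, most of them named Snord, guide ribose methylation of ribosomal RNA by fibrillarin, and H/ACA box RNAs, named Snora, guide pseudouridylation by dyskerin. The scaRNAs guide the same changes on spliceosomal RNAs in Cajal bodies. Most vertebrate snoRNAs are cut out of introns of host genes, many of which encode ribosomal proteins. A few are transcribed from promoters of their own, among them U3 (Rnu3a), U8 (Snord118) and U13 (Snord13). U3 and U8 act in the cleavage of precursor ribosomal RNA, U3 on the small-subunit side and U8 on the large-subunit side. Mature snoRNAs carry no poly(A) tail, while RNA was selected for mRNA before these libraries were made, so the values count what passed that selection.

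The sequences below are those of Rnu3a and Snord118, which have promoters of their own, of Snord17 and Snord96a, the most abundant C/D members apart from Rnu3a, and of Snora65, the most abundant H/ACA member. They are read 5′ to 3′ from the GENCODE M21 transcripts on GRCm38. Capitals mark the boxes searched: TGATGA (a form of the C box) anywhere and CTGA (the D box) within the last 10 bases of C/D RNAs, and ACA within the last 6 bases of the H/ACA RNA.
Rnu3a: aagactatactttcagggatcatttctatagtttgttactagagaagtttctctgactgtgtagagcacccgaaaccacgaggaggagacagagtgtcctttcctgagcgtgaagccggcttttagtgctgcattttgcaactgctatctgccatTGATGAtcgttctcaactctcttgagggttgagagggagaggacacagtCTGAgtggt
Snord118: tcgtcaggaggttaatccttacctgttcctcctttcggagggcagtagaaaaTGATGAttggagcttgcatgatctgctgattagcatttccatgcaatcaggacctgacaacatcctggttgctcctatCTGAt
Snord17: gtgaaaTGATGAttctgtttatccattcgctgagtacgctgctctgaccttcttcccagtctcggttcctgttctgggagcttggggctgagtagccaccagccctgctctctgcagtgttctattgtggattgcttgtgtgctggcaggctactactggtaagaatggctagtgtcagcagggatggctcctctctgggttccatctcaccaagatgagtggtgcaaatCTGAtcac
Snord96a: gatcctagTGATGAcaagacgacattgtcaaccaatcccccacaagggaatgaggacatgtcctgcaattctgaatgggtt
Snora65: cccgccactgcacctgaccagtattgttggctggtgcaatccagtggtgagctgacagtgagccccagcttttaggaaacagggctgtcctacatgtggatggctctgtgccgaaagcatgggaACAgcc

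Rnu3a lies at chr10:40258467-40258679 (plus strand) and Snord118 at chr11:69073427-69073561 (plus strand), and the annotation places neither of them, nor Snord13, inside a host gene on its strand. Snord17 lies at chr2:144265979-144266216 (minus strand) in an intron of Snx5, which encodes a sorting nexin. Snord96a lies at chr11:48802032-48802112 (plus strand) in Rack1, which encodes a ribosome-bound scaffold protein, and Snora65 at chr2:32963291-32963420 (plus strand) in Rpl12, a large-subunit protein gene. The letters TGATGA, on the RNA strand only, occurred in 17 of 22 Snord members (77.3%), against 75.5% of the 98 annotated Snord RNAs, and in 0 of 19 Snora members. CTGA stood within the last 10 bases of 15 of 22 Snord members (68.2%, against 71.4% of all annotated). It is missing there from the Snord96a transcript printed above, in which the same letters begin just before that window. ACA stood within the last 6 bases of 18 of 19 Snora members (94.7%, against 92.9% of the 42 annotated Snora RNAs).

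The signal behind these RNAs was thin. The 42 members together had 2171 of 74383886 counted reads: 38 to 188 reads in each wild-type library and 92 to 352 in each knockout library. Single members had 7 to 234 reads over all 11 libraries, 27 had under 50, and 34 had no read in at least 1 library. Only Rnu3a (mean 22.2) and Snord96a (mean 17.6) reached the mean of 10 normalized counts used as the minimum of the main test. The other 40 lay between 1 and 10 and were fitted at a minimum mean of 1. The depth of the wild-type libraries was 1208896 to 5853454 counted reads and that of the knockout libraries 3125366 to 15557862, a difference with p = 0.026 by a two-sided exact permutation test. A single read was therefore worth between 0.347 and 4.51 normalized counts, depending on the library.

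Trex2 itself, the targeted gene, had 1125 to 2196 normalized counts in wild-type libraries and 0.794 to 3.47 in knockout libraries. Markers of the cells in skin also differed in level between the groups. The summed level of 10 leukocyte markers was 16083 to 23502 in wild type, against 7068 to 19428 in knockout, with a lower mean log2 level in knockout for 10 of 10. The sum of 12 keratinocyte markers was 56957 to 151281 in wild type, against 98627 to 297596 in knockout, with a higher one for 12 of 12. No marker of either list was at 0, and none passed the adjusted threshold with limma over all 11 libraries. DESeq2 on the recovered reads called 3 of the leukocyte and 4 of the keratinocyte markers, where 5.66% of all genes with an adjusted p were called. Limma without wild-type replicate 4 called 1 and 5, where 5.6% of all genes were called. Their part in the snoRNA values was not tested, and in whole skin fewer cells of a type and less RNA per cell cannot be told apart.

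Among the members with promoters of their own, Rnu3a stood at 47.2, 31.6, 17.8, 46.3 and 58.1 normalized counts in wild-type replicates 2 to 6. In knockout replicates 7 to 12 it stood at 10.4, 9.70, 3.97, 9.07, 6.97 and 3.12. Every knockout library lay below every wild-type library, the lowest wild-type value being that of replicate 4. The means were 40.2 ± 15.7 (SD, n = 5) and 7.21 ± 3.07 (SD, n = 6). On the log2(value + 1) scale, used for all log2 fold changes or log2 differences here, the knockout was lower by a log2 fold change of -2.32 (SE 0.37). These levels rest on 137 wild-type and 70 knockout reads. With the reads of each group pooled and divided by its summed size factors, the knockout to wild-type ratio was 0.165. This ratio weights libraries by depth and is not the ratio of the means above. Its 95% exact interval ran from 0.122 to 0.222 for counting error alone. The interval leaves out variation between mice. It is not a test, since the choice of members had used this difference. All knockout libraries lay below all wild-type libraries for 1.29% of the 13215 genes with a mean of at least 10.

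U3 in mouse is also encoded by Rnu3b1 to Rnu3b4 on chromosome 11, and these rows were listed at 0 in all libraries. In the annotation the Rnu3b1 to Rnu3b4 transcripts of 215 bases are identical to each other, and 184 of their bases match Rnu3a (85.6% identity). Rnu3a and each Rnu3b gene are annotated under 2 overlapping gene identifiers. How the authors' counting treated reads with several matches, or reads in overlapping genes, is not given in the sources used here. The Rnu3a value may not hold all U3 reads and the zeros of the Rnu3b rows are not read as absence.

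Snord118 (U8) had 5.44, 4.51, 1.11, 6.35 and 6.28 normalized counts in the wild-type libraries. The knockout libraries ran from 0 through a median of 0.765 to 3.22. The groups overlapped through wild-type replicate 4, and 2 knockout libraries, replicates 7 and 9, had no read. The log2 difference was -1.58 (SE 0.49, limma adjusted p = 0.120), from 16 wild-type and 12 knockout reads. The ratio of pooled reads, scaled as for Rnu3a, was 0.242 (95% exact interval 0.105 to 0.546, counting error only). Snord13 (U13), which guides acetylation of small-subunit ribosomal RNA, had 5.44, 4.51, 1.11, 0 and 1.57 normalized counts in wild type. In knockout 5 of 6 libraries had no read of Snord13 and replicate 11 had 0.536, which was 1 read. The log2 difference was -1.41 (SE 0.51, limma adjusted p = 0.149), and the ratio of pooled reads, scaled in the same way, was 0.054 (interval 0.001 to 0.444), from 6 reads against 1. Snord13 reached the minimum mean of 1 only through wild type, at 2.53 against 0.089 in knockout, so its groups had to differ and the interval supports nothing. Neither RNA passed the threshold of 0.05 over all libraries. Without wild-type replicate 4, Snord118 passed (log2 fold change -1.91) in a fit where 4.64% of all genes did. Both were singled out after their values were seen.

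**Figure D1:**
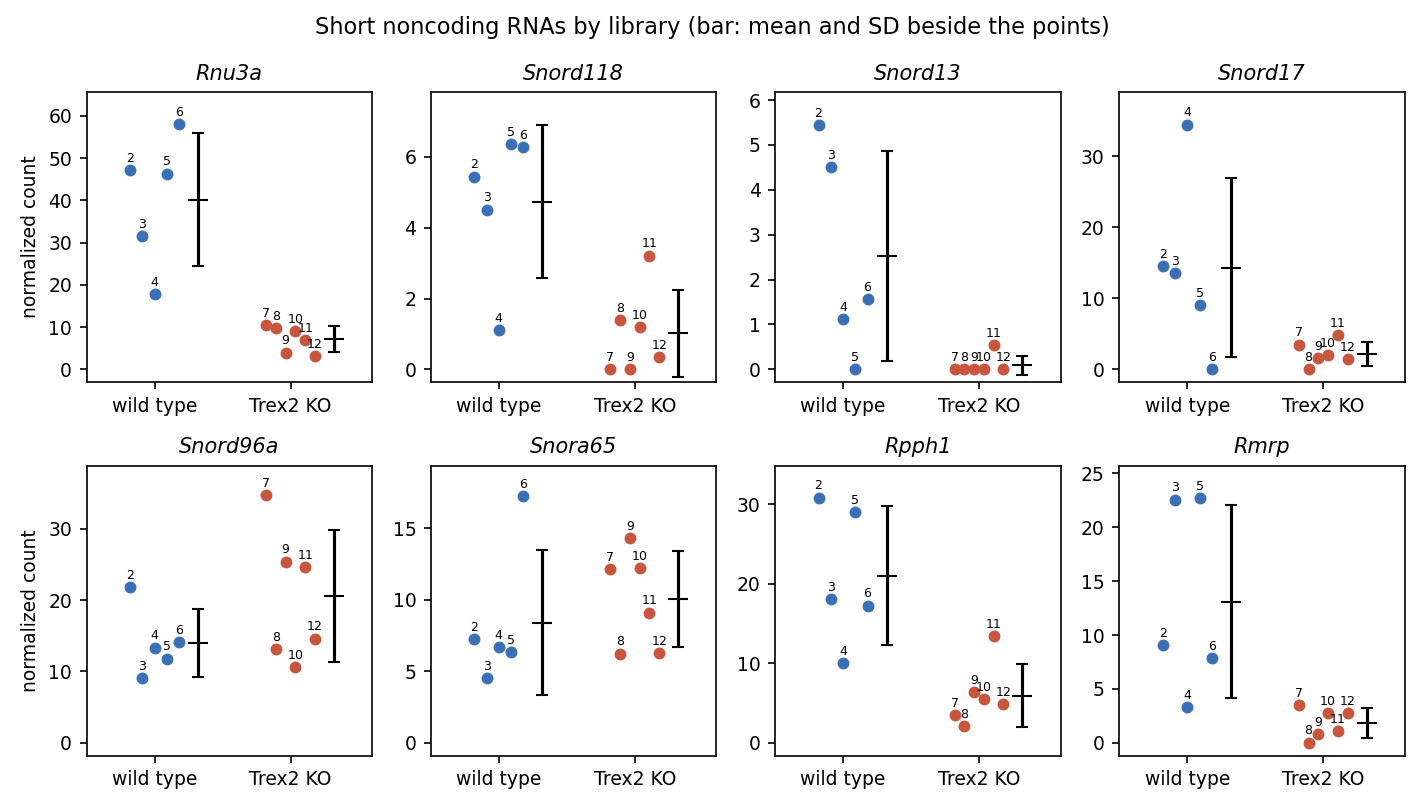
Normalized counts (vertical axes) of 6 members and of the non-members Rpph1 and Rmrp in each library, numbered by replicate, for wild type (blue) and Trex2 knockout (red). The black mark beside each set of points is the mean with its SD. Rnu3a separates the groups without overlap, whereas Snord96a and Snora65 overlap broadly.

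The other 3 members without an annotated host were Snord104, Snora17 and Snora43. Their summed level overlapped between the groups, at 0 to 27.2 normalized counts in wild type and 2.76 to 14.3 in knockout, and their log2 fold changes were -0.22, 0.29 and 0.51 with SEs of 0.59 to 0.63. With edgeR all 3 were negative, at -0.99, -0.38 and -0.05. All 6 members without a host summed to 55.3 ± 24.0 normalized counts (SD, n = 5) in wild-type skin and 14.6 ± 4.07 (SD, n = 6) in knockout skin. Rnu3a accounts for that separation. Without it, the remaining 5 summed to 5.56 to 38.1 in wild type, against 3.94 to 14.3 in knockout.

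Among the C/D members, Snord96a was the most abundant after Rnu3a. It had 21.8, 9.03, 13.3, 11.8 and 14.1 normalized counts in wild type and 10.6 to 34.7 in knockout, with a median of 19.6. The groups overlapped, and knockout replicates 7, 9 and 11 lay above every wild-type library. The log2 difference was 0.46 (SE 0.33, limma adjusted p = 0.402 among the 13215 genes). Snord17 had 14.5, 13.5, 34.5, 9.08 and 0 normalized counts in wild type, and 0 to 4.82 in knockout with a median of 1.78. Wild-type replicates 2 to 5 lay above every knockout library, and wild-type replicate 6 had no read. The log2 difference of Snord17 was -1.78 (SE 0.74, limma adjusted p = 0.193), from 52 wild-type and 22 knockout reads. Its host Snx5 had 1613 ± 181 normalized counts (SD, n = 5) in wild-type skin and 1684 ± 173 (SD, n = 6) in knockout skin, a log2 fold change of 0.06.

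Snord22, the U22 RNA of the long noncoding host Snhg1, had 9.07, 0, 4.45, 5.45 and 6.28 normalized counts in wild type. In knockout it ran from 0.693 through a median of 7.03 to 23.8, the highest being replicate 9. Its log2 fold change of 0.67 (SE 0.66, limma adjusted p = 0.580) was -0.15 with library depth as a covariate. Snord33, cut from Rpl13a, had 1.81, 0, 3.34, 2.72 and 6.28 normalized counts in wild type and 3.47 to 12.7 in knockout, with a median of 6.37 (log2 fold change 1.34, SE 0.48, limma adjusted p = 0.148). Snord2, in Eif4a2, a translation initiation factor gene, had no read in wild-type replicates 2, 3 and 5 and had 0 to 6.31 normalized counts in knockout, with a median of 3.47. Its log2 difference was 1.33 (SE 0.55, limma adjusted p = 0.189), on 3 wild-type reads. Snord33 and Snord2 were named after their values were seen. Over the 22 Snord members, 13 log2 fold changes were positive and 9 negative, with a median of 0.06.

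Among the H/ACA members, Snora65 had 7.26, 4.51, 6.67, 6.35 and 17.3 normalized counts in wild type and 6.24 to 14.3 in knockout, with a median of 10.6. Its log2 difference was 0.30 (SE 0.36, limma adjusted p = 0.650), and its host Rpl12 differed by -0.04. Snora15, in the chaperonin gene Cct6a, had 0, 4.51, 4.45, 10.9 and 7.85 normalized counts in wild type and 5.89 to 12.1 in knockout (log2 fold change 0.81, SE 0.53, limma adjusted p = 0.386). Snora73b, a U17 RNA in the noncoding host Snhg3, had 3.63, 18.1, 4.45, 5.45 and 1.57 in wild type and 1.58 to 7.94 in knockout. Its log2 fold change of -0.25 (SE 0.51, limma adjusted p = 0.799) turned to 0.16 without wild-type replicate 3, where 4 reads make up 18.1 normalized counts. These 3 most abundant Snora RNAs overlapped between genotypes throughout.

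The H/ACA members with the highest log2 fold changes, named after their values were seen, rested on few wild-type reads. Snora3, in Rpl27a, had no read in wild-type replicates 2, 3 and 6 and 1.11 and 0.908 normalized counts in replicates 4 and 5. In knockout it ran from 0.693 through a median of 3.99 to 6.97. The log2 difference was 1.66 (SE 0.51, limma adjusted p = 0.119), from 2 reads against 35. Snora5c, in Tbrg4, had reads in only 1 of 5 wild-type libraries, replicate 4 at 3.34, and 1.39 to 2.76 in all 6 knockout libraries (log2 fold change 1.11, SE 0.47, limma adjusted p = 0.193). Snora3, Snora5c and Snord2 are among 5 members that reached the minimum mean of 1 only through knockout, and Snord13 is among 5 that did so only through wild type. Their groups had to differ, and their differences support nothing. Of the 19 Snora members, 15 log2 fold changes were positive and 4 negative, with a median of 0.32 (12 and 7 with edgeR, median 0.16). The scaRNAs lay below every member by the rule of choice, since none reached the minimum mean. The 9 Scarna rows had 12 reads in wild type and 7 in knockout, and the highest, Scarna10, had a mean of 0.82.

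Over all 42 members, 28 log2 fold changes were positive and 14 negative (66.7% positive, against 51.0% of the 16732 genes with a mean of at least 1). Their median was 0.30, against 0.01 for all those genes. The split was 24 to 18 with edgeR, with a median of 0.15, and 25 to 17 with the depth covariate, with a median of 0.11. With limma, 0 of 42 passed an adjusted p of 0.05, where 0.012% of all genes did. At a minimum mean of 10, 0 of 2 members passed and 0.0151% of genes. Of the 41 members other than Rnu3a, 7 had an unadjusted p under 0.05, 4 higher and 3 lower in knockout, which is 17.1% against a background of 21.6% (11.5% higher and 10.1% lower). Among these 7 are Snora3, Snora5c, Snord2 and Snord13, which reached the minimum mean only through 1 group, so the count cannot be read as a result. Nothing is read from calls of Rnu3a, since the choice of members had used its difference. Of the 41 others, 0 passed the adjusted threshold with edgeR on the recovered reads (0.0239% of all genes, and 0.0303% at a minimum mean of 10) and 0 with a pseudocount of 5 (0.0179% of all genes). With edgeR 6 of the 41 had an unadjusted p under 0.05, which is 14.6% against a background of 20.3%. Snora3, Snord2 and Snord13 are among these 6 too. Without wild-type replicate 4, Snord118 and Snora5c passed the adjusted threshold, as did 4.64% of all genes. Replicate 4 is the only wild-type library with Snora5c reads, so that call compares knockout with a group at 0. No member other than Rnu3a had groups without overlap. Among all genes with a mean of at least 1, all knockout libraries lay below all wild-type libraries for 1.14% and above for 0.902%.

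**Figure D2:**
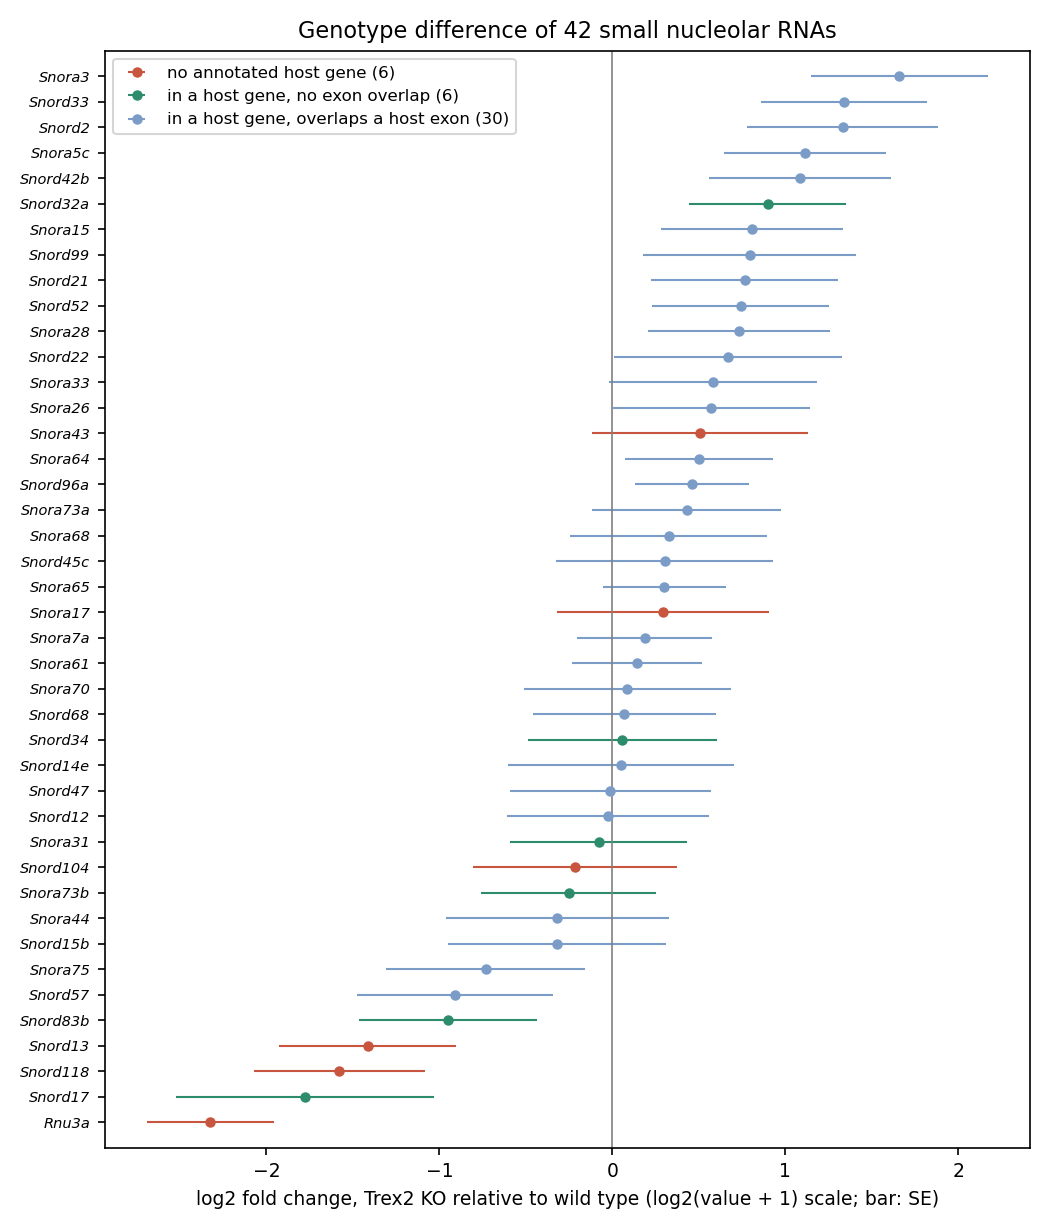
Log2 fold change of each of the 42 members, knockout over wild type as log2(value + 1), with its SE, from the fit of all genes with a mean of at least 1. Colours separate 6 members without an annotated host gene (red), 6 in a host gene without exon overlap (green) and 30 that overlap a host exon (blue). Rnu3a has the lowest value, -2.32, and Snora3 the highest, 1.66.

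The summed level of all members was 181 ± 23.1 normalized counts (n = 5, SD) in wild-type skin (160 to 220) and 158 ± 49.4 (n = 6, SD) in knockout skin (122 to 252), a knockout to wild-type ratio of 0.869. Without Rnu3a the sums were 141 ± 19.1 and 150.5 ± 50.7. Their ranges overlapped with and without Rnu3a. The 36 members inside host genes summed to 111 to 137 in wild type, against 107 to 233 in knockout. Knockout replicate 9 stood apart at 233, and the next knockout value was 147. Without that library the knockout mean was 125.0 ± 18.8 (SD, n = 5), or 99.2% of the mean of 126 in wild type. Replicate 9 also had the highest summed level of the keratinocyte markers, 297596. Knockout replicate 12, next at 269736, had 115 in the 36 hosted members and the lowest sum of all members, 122. Whether the skin composition of either library bears on its snoRNA level was not tested.

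The number of members with a read was set against depth. Wild-type libraries held reads for 22 to 36 of 42 members and knockout libraries for 28 to 39. At 3 reads or more the numbers were 3 to 21 in wild type, lowest in replicate 3, and 11 to 34 in knockout. Brought down to the 1208896 reads of wild-type replicate 3 by the expected number under random thinning, the other libraries would show 17.2 to 25.2 members, against 22 in that library itself. In that order knockout replicate 9 came first and knockout replicate 12, the deepest, came last. The members had been chosen by a mean over these same libraries, and a single read of wild-type replicate 3 was worth 4.51 normalized counts. Reads in that library thus helped a row to the minimum mean, so its 22 cannot be compared evenly with the thinned numbers.

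**Figure D3:**
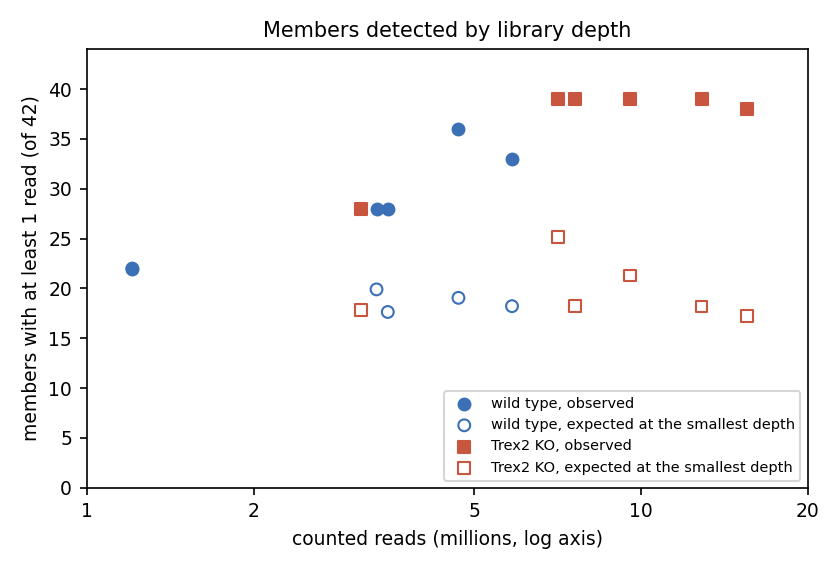
Number of the 42 members with at least 1 read (vertical axis) against counted reads per library (log axis). Filled symbols are observed numbers, and open symbols the numbers expected after thinning to the smallest library, which itself shows 22. The choice of members favours rows with reads in that smallest library, so its 22 is not an even comparison. Observed numbers run from 22 to 39, and thinned ones from 17.2 to 25.2.

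Levels after normalization were also set against depth. Over the 11 libraries, Spearman's rho between a member's normalized count and depth had a median of 0.13, and 13 of 42 members (31.0%) had a negative rho. For all genes with a mean from 1 to 10 the share of negative values was 45.5%. All these points share the same 11 libraries, and genotype moves with depth among them. With values and depth centred within each genotype, the median correlation of the members was 0.02, and 21 of 42 were negative. For Rnu3a within the 6 knockout libraries, Pearson's r with log10 depth was -0.53 (exact permutation p = 0.233, two-sided) and rho was -0.60 (exact permutation p = 0.242). Leaving out replicates 7 and 12, the farthest from the median depth, turned r to 0.48, so the sign rests on those libraries. For Snord96a within knockout, r was -0.82 (exact permutation p = 0.064) and rho was -0.71 (exact permutation p = 0.136), and r was -0.52 without the same libraries. The Benjamini-Hochberg adjusted value was 0.242 for each of these 4 correlations. No correlation was computed within the 5 wild-type libraries.

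The genotype difference of Rnu3a was also read within a narrower range of depth. The groups were not matched in it: knockout replicates 8 and 9, at 7602952 and 7097436 reads, were deeper than any wild-type library (at most 5853454). In the libraries of 3000000 to 8000000 reads, Rnu3a had 17.8 to 58.1 normalized counts in 4 wild-type libraries and 3.97 to 10.4 in 3 knockout libraries, a log2 fold change of -2.24 (SE 0.47). With log10 depth as a covariate over all libraries it was -2.08 (SE 0.49). In the libraries of that range Snord17 had 0 to 34.5 normalized counts in wild type and 0 to 3.47 in knockout. Snord118 had 1.11 to 6.35 and 0 to 1.39 there. With the depth covariate, the log2 fold changes of Snord17 and Snord118 were -1.61 (SE 1.02) and -1.80 (SE 0.66), and 3 of the 41 members other than Rnu3a had an unadjusted p under 0.05, at a background of 4.7%. Snora3, among those 3, reached the minimum mean only through knockout. The value of Snord2 went from 1.33 to 0.38 when depth entered the fit.

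**Figure D4:**
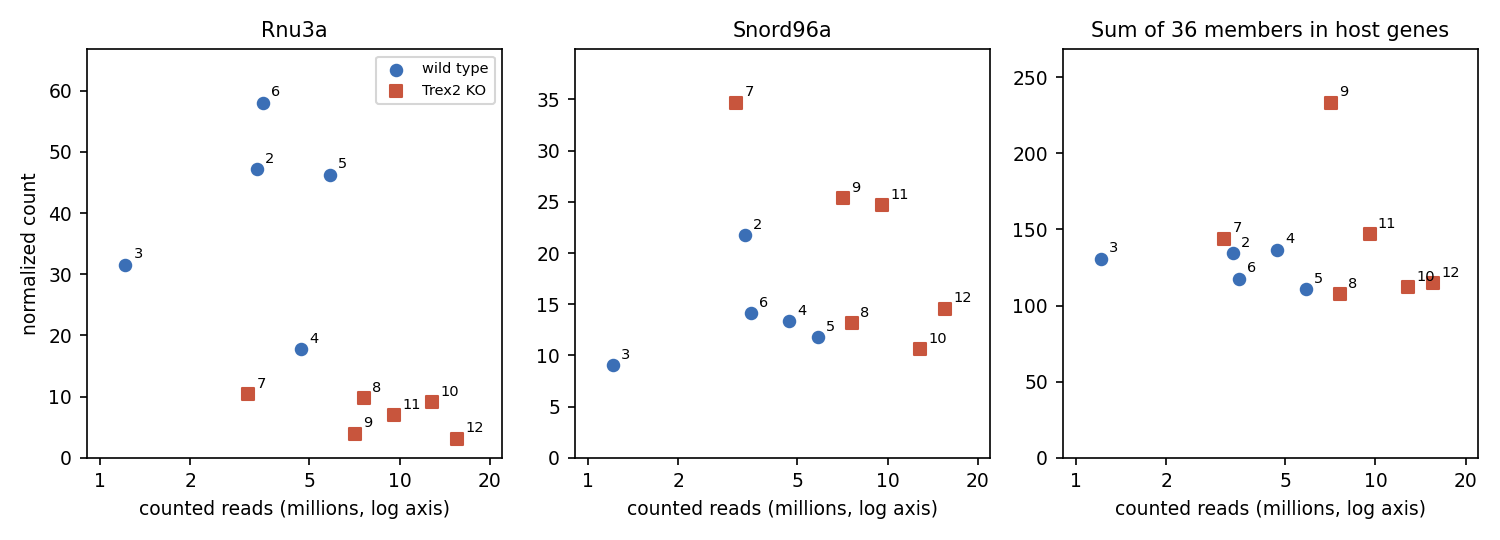
Normalized counts of Rnu3a, of Snord96a and of the 36 members in host genes summed (vertical axes) against counted reads (log axis), numbered by replicate. Wild-type libraries are blue circles and knockout libraries red squares. Knockout replicate 7, at a depth like that of wild-type replicates 2 and 6, has 10.4 normalized counts of Rnu3a against their 47.2 and 58.1.

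Of the 42 members, 36 lay inside an annotated gene on the same strand. The 31 host genes included ribosomal protein genes, which held 15 members, and long noncoding hosts such as Snhg12, Snhg3 and Gas5, which held 10. The annotation has an exon of the host overlapping 30 of the 36. Whether reads of those 30 came from the snoRNA or from a host transcript cannot be told apart in these counts, and the strand setting of the counting is not given either. Members sat far below their hosts, at a median of 0.158% of the host's normalized count, with no correction for length.

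None of the 30 hosts with a row passed the main limma test, where 0.0151% of all genes did. An unadjusted p under 0.05 was found for 2 of the hosts, both higher in knockout. Of all genes, 24.4% had such a p and 12.9% were higher with it. The log2 fold changes ran from -0.37 to 0.45 with a median of -0.04. The host with the highest value, Tbrg4, a mitochondrial RNA-binding protein gene, had 196 ± 21.3 normalized counts (SD, n = 5) in wild-type skin and 271 ± 49.0 (SD, n = 6) in knockout skin (log2 fold change 0.45, limma adjusted p = 0.114). Cct6a had a log2 fold change of 0.42 (limma adjusted p = 0.130). Rack1, the host of Snord96a, which the table lists under its older symbol, differed by -0.07, and Rpl27a, the host of Snora3, by -0.04. In 12 of 35 pairs the member and its host had log2 fold changes of the same sign with limma. Several of these hosted members changed sign with edgeR. Across pairs, Spearman's rho was -0.06 between the fold changes and -0.04 between the levels. Pairs are not independent, since several members share a host. The 6 hosted members without exon overlap were Snord17, Snord32a, Snord34, Snord83b, Snora31 and Snora73b, with log2 fold changes from -1.78 to 0.90.

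Several hosts carry more than 1 member, and the members of a host did not share a value. Rpl13a, which encodes a large-subunit protein, holds Snord33, Snord32a and Snord34, with log2 fold changes of 1.34 (SE 0.48), 0.90 (SE 0.45) and 0.06 (SE 0.55), while Rpl13a itself differed by -0.22. The noncoding Snhg12 holds Snord99, Snora61 and Snora44, at 0.79 (SE 0.62), 0.14 (SE 0.37) and -0.32 (SE 0.64). Snhg3 holds both U17 RNAs, Snora73a at 0.43 (SE 0.54) and Snora73b at -0.25 (SE 0.51). The differences within a host were not tested, and their SEs are as wide as most of these values. Among hosted members with negative values besides Snord17 were Snord83b in Rpl3 at -0.95 (SE 0.51), Snord57 in Nop56 at -0.91 (SE 0.57) and Snora75 in Ncl, the nucleolin gene, at -0.73 (SE 0.58), on 11, 9 and 12 reads in all. These members too were named after their values were seen. Snord83b, Snord57 and Snora75 are among the 5 members that reached the minimum mean of 1 only through wild type. Their groups had to differ, and their differences support nothing.

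**Figure D5:**
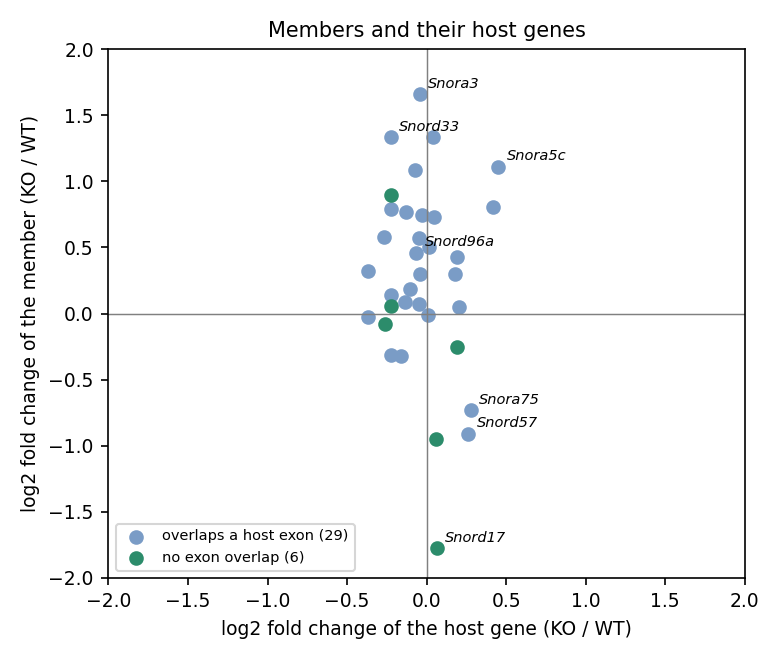
Log2 fold change of each member (vertical axis) against that of its host gene (horizontal axis, same scale), knockout relative to wild type, for 35 pairs. Blue points overlap a host exon (29) and green points do not (6). Hosts lie between -0.37 and 0.45, while members spread from -1.78 to 1.66.

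Other short noncoding RNAs that are not members were set beside Rnu3a, since they too are transcribed from promoters of their own and lack a poly(A) tail when mature. The 19 rows looked at summed to 48.1 ± 21.3 normalized counts (n = 5, SD) in wild-type skin (24.5 to 68.1) and 12.7 ± 5.01 (n = 6, SD) in knockout skin (6.24 to 21.4), and 9 of the 19 were at 0 throughout. Rpph1, the RNA of ribonuclease P, had 30.9, 18.1, 10.0, 29.0 and 17.3 in wild type and 2.08 to 13.4 in knockout, with a median of 5.19. Its log2 difference was -1.73 (SE 0.40, limma adjusted p = 0.113 at a minimum mean of 1). Rmrp, the RNA of ribonuclease MRP, had 9.07, 22.6, 3.34, 22.7 and 7.85 in wild type and 0 to 3.47 in knockout, with a median of 1.92 (log2 fold change -2.23, SE 0.52, limma adjusted p = 0.113). For both, only wild-type replicate 4 lay within the range of the knockout libraries, and replicate 4 was also the lowest wild-type library for Rnu3a and Snord118. The vault RNA Vaultrc5 had a log2 fold change of -1.90 (SE 0.59, limma adjusted p = 0.120) and Rn7sk, which holds back a transcription elongation factor, -0.76 (SE 0.43, limma adjusted p = 0.318). None of these passed the threshold over all 11 libraries. Vaultrc5 reached the minimum mean of 1 only through wild type, at 5.74 against 0.36 in knockout. Its groups had to differ, and its difference supports nothing. Without wild-type replicate 4, Rpph1 (log2 fold change -1.96) and Rmrp (-2.59) both reached a limma adjusted p of 0.029, in a fit where 4.64% of all genes passed. The list was drawn up with the Rnu3a result known. Replication histone genes were taken by name, as 30 rows beginning with Hist1h to Hist4h. Their sum was 712 ± 133 (SD, n = 5) in wild-type skin and 714 ± 151 (SD, n = 6) in knockout skin. Most replication histone mRNAs end without poly(A), but some rows of this name may have polyadenylated forms, which was not checked.

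The proteins that act with these RNAs were read from 4 lists. Of 53 genes, 0 passed the main limma test, where 0.0151% of all genes did. Of the 53, 11 had an unadjusted p under 0.05, all 11 higher in knockout, and 45 log2 fold changes were positive. Of all 13215 genes, 12.9% had an unadjusted p under 0.05 and a higher level in knockout, and 24.4% in either direction. Among the C/D core proteins 4 of 4 log2 fold changes were positive, with a median of 0.10. Nop56, which holds the C/D particle together with Nop58 and is the host of Snord57, had 485 ± 59.2 normalized counts (SD, n = 5) in wild-type skin and 586 ± 102 (SD, n = 6) in knockout skin, a log2 fold change of 0.26 (limma adjusted p = 0.260). Nop58 differed by 0.16 and Fbl, fibrillarin, by 0.03. Of the 4 H/ACA core proteins, Dkc1, dyskerin, differed by 0.26 and Nop10 by -0.12, and the median of the list was 0.11.

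The 26 proteins of the processome, the particle in which U3 works, had 24 positive log2 fold changes and a median of 0.21. Their highest values included Nol6 at 0.57 (SE 0.18, limma adjusted p = 0.112) and Utp20 at 0.51 (SE 0.17, limma adjusted p = 0.116). Of the 19 assembly and Cajal body proteins, 14 had positive values, with a median of 0.15, led by Gemin5 at 0.59 (SE 0.19, limma adjusted p = 0.116) and Shq1, an assembly factor of H/ACA particles, at 0.53 (SE 0.18, limma adjusted p = 0.124). Coil, the Cajal body scaffold, differed by 0.34 (SE 0.27).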

How the data were processed

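Total RNA of pulverized skin was selected for mRNA and sequenced, per the labels' protocols. The authors deposited 1 table of normalized signal, in which each value is a read count divided by a size factor of its library. TopHat2 2.0.8, featureCounts 1.4.6, DESeq2 1.8.1 and GRCm38 are named in the submitters' processing notes. The sources used here do not name the annotation, the strand setting or the handling of reads with several matches (not given in the sources used here). Reads were recovered as whole multiples of the value of 1 read (100% of values within 0.01). Detection was taken as at least 1 read, with the numbers at 3 reads or more given beside it, and intervals cover counting error only.

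The members and lists were chosen with earlier results of these data known. limma 3.58.1 (R 4.3.3; moderated variances with a trend) was run on log2(value + 1) of the 13215 genes with a mean of at least 10, and of the 16732 with a mean of at least 1 for low members, with Benjamini-Hochberg adjustment over all genes and a threshold of 0.05. Depth was compared over 462 splits. edgeR 4.0.16, DESeq2 1.42.0, other scalings, filters, pseudocounts, a depth covariate and leaving out libraries were alternatives. The fits at a minimum mean of 1 combined with another alternative were added after the data were seen. Host genes and sequences came from GENCODE M21 on GRCm38. The scripts were tested on simulated data. Genes were named by a rule: Rnu3a, members past a threshold, the 3 most abundant of each class, tested members by fold change, the 2 genes of smallest p in each list, and hosts of named members. Fbl, Coil and the members said to be named after their values were seen stand outside it, and the marker, mitochondrial and short RNA lists are given mainly as sums. The submitters call the samples biological replicates.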

Additional observations from a re-analysis of the deposited data

Results flagged for a closer look

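Dixon's test was applied to each group of libraries for the members and sums reported, 32 groups in all, and 7 were flagged. Chance flags about 1 in 20 for normally distributed values. Counts of a few reads, often at 0, are not such values, so the 7 cannot be set against that rate. Knockout replicate 9 was far above the other knockout libraries in Snord22, at 23.8 normalized counts with the next at 8.33. The same library was far above the rest in the sum of the 36 members inside host genes, at 233 with the next at 147, and in the sum of all members, at 252 with the next at 162. These 3 flags share a library and reads and are not independent. Wild-type replicate 6 stood at 17.3 for Snora65, with the next wild-type library at 7.26. Wild-type replicate 3, the library with the fewest reads, stood at 18.1 for Snora73b, with the next at 5.45. Knockout replicate 11 was the only knockout library with a read of Snord13, at 0.536, and wild-type replicate 4 was the only wild-type library with reads of Snora5c, at 3.34. Both of the last flags rest on a group otherwise at 0.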

How the results depend on the processing

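No paired analysis was possible because the replicate numbers, wild type 2 to 6 and knockout 7 to 12, are not shared between the groups. The log2 fold change of Rnu3a was negative under all alternatives run, from -2.58 to -1.85. Of the 2 members with a mean of at least 10, limma called 0, edgeR called 1 and the fit without wild-type replicate 4 called 1, Rnu3a each time, from which nothing is read because the choice of members used its difference, and leaving out each library gave 0 to 1. Of all 42, edgeR called 1 and a pseudocount of 5 called 1, again Rnu3a (0.0179% of all genes with that pseudocount). Without wild-type replicate 4 the count was 3 (Rnu3a, Snord118 and Snora5c, the last against a wild-type group then at 0), where 4.64% of all genes passed, against 0.012% with it, and leaving out each library gave 0 to 3. DESeq2 gave members no adjusted p and a minimum mean of 50 left no member, so neither gave a count. The median log2 fold change was -0.93 over the 2 members with a mean of at least 10 and 0.30 at a minimum mean of 1 or with no filter, where all 42 enter. Over the 42 it was 0.058 with a pseudocount of 5. Snord22 reversed to -0.15 with the depth covariate and to -0.038 in libraries of 3000000 to 8000000 reads. Snora73b reversed to 0.22 and 0.14 under the same alternatives and to 0.16 without wild-type replicate 3. With edgeR Snora17, Snora43, Snora68, Snora70, Snord14e, Snord34 and Snord68 turned negative. Snora31, Snord12 and Snord47 turned positive with edgeR. The cause of these moves was not tested. The median Spearman's rho with depth was -0.38 over the 2 members with a mean of at least 10. The ratio of summed levels ran from 0.766 to 0.973 for all members and from 0.928 to 1.21 without Rnu3a. No host gene and no protein gene of the 4 lists was called under any alternative run. Most alternatives called few genes of any kind, such as 0.0303% with edgeR at a minimum mean of 10. At that minimum, DESeq2 called 5.66% of all genes with an adjusted p, and limma without wild-type replicate 4 called 5.6% of all genes. In depth, 3 reads were worth 1.04 to 13.5 normalized counts, depending on the library.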
